A study of Homo sapiens with 18 samples.

Results

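The comparison described here asks whether the APOA4-KO line and its parental line HepG2 responded differently to 24 h of hypoxia. It is the interaction contrast of RNA sequencing counts, (APOA4-KO 24 h minus APOA4-KO 0 h) minus (HepG2 24 h minus HepG2 0 h), taken over 12 of the 18 libraries of the series, with 3 libraries in each of the 4 groups. HepG2 is an established human liver cancer cell line with many hepatocyte traits. APOA4-KO is a derivative of HepG2 made with CRISPR-Cas9 and a pair of guide RNAs aimed at APOA4. Single colonies were picked, and clones with both alleles mutated were kept. The sources used here do not say how many clones went into the libraries. The groups HepG2 0 h and APOA4-KO 0 h were not exposed to hypoxia, and the groups HepG2 24 h and APOA4-KO 24 h were kept at 1% oxygen for 24 h. No cells were kept outside hypoxia for 24 h, so hypoxia and time in culture cannot be told apart. The knockout and any other way in which the edited cells differ from HepG2 cannot be told apart either. The labels do not say whether the 3 libraries of a group came from separate cultures, and p-values measure only the spread between these libraries. A positive line difference means that the log2 fold change from 0 h to 24 h was more upward, or less downward, in APOA4-KO. Responses are called larger or smaller by fold change, which can differ from the order of the changes in level.

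Cells short of oxygen stabilize hypoxia-inducible factors (HIF), which bind DNA at a short core motif and raise genes for glycolysis, blood vessel growth, iron handling and pH control, together with prolyl hydroxylases that limit HIF itself. Liver cells under hypoxia also shift fuel use away from mitochondrial respiration and alter gluconeogenesis and lipid storage. APOA4 encodes apolipoprotein A-IV, a secreted lipid-binding protein of intestine and liver.

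The guides are shown because they define the edited line. Each is printed 5′ to 3′ with the PAM, the short motif that Cas9 needs beside its target, in capitals.

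sgRNA1: agtggtggctgttccgtgcgTGG

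sgRNA2: ttggggaccgagacgagtctGGG

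The site of sgRNA1 with its PAM lay on the strand opposite to the gene at chr11:116823497-116823519 (GRCh38.p14), 193 to 215 bases before the start of APOA4 that RefSeq gives. The 250 bases before that start (chr11:116823305-116823554, minus strand, RefSeq) are printed with this site in capitals. The site of sgRNA2 was not in this window, and its place in the genome was not analysed here.

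APOA4: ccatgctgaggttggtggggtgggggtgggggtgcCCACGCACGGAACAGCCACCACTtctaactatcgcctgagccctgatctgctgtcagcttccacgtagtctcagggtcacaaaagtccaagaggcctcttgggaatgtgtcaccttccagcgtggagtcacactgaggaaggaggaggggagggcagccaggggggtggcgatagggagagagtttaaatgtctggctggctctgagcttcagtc

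APOA4 itself belonged to the genes whose response differed. Levels are given as CPM, the count of a gene relative to the library total after scaling with TMM. In HepG2, APOA4 was at 8.95, 9.67 and 8.46 CPM in the 3 libraries at 0 h and at 19.8, 19.8 and 21 CPM at 24 h. In APOA4-KO it was at 8.35, 7.80 and 6.99 CPM at 0 h and at 8.25, 7.51 and 8.04 CPM at 24 h. The 0 h and 24 h libraries did not overlap in HepG2, whereas in APOA4-KO they did. The log2 fold change was 1.16 in HepG2 and 0.04 in APOA4-KO, and the line difference was -1.12 (standard error 0.11, edgeR adjusted p = 3.4e-07). After a correction for GC content and gene length, described with the plot of responses by GC content, the line difference was -0.76 (adjusted p = 5.1e-05), short of the limit of 1. At 0 h the APOA4 libraries of the lines did not overlap but were close, so the RNA level at 0 h shows no loss of APOA4 RNA that would check the genotype label. The paper checked the edited line by PCR and Sanger sequencing, and the RNA level does not test those results. Of the annotated exon bases of APOA4, 43.1% are shared with another annotated gene.

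The 12 libraries held 76481820 to 91476613 counts each. Summed over 10 hepatocyte markers such as ALB, APOB and TTR, the level was 48816 to 76365 CPM, and each of the 10 averaged 1 CPM or more in every group. Some libraries stood apart. A set of 61 genes was at least 2-fold higher in each APOA4-KO 0 h library and in APOA4-KO 24 h replicate 1 than in any of the other 14 libraries of the series. With another APOA4-KO 24 h replicate in its place, no gene met this rule. The set was defined after the values had been seen, and it holds mesenchymal genes such as VIM and interferon-induced genes such as IFIT3. Summed over 13 blood cell transcripts, also picked after their values were seen, the level was 2.84 CPM in HepG2 0 h replicate 3 and 5.90 CPM in APOA4-KO 24 h replicate 1, against 51.2 to 490 CPM in the remaining 10 libraries. Counts that moved by over 1.5 times without APOA4-KO 24 h replicate 1 are given with and without it.

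A gene was called where edgeR's quasi-likelihood test over 19743 genes gave a log2 value of 1 or more in size together with a Benjamini-Hochberg adjusted p below 0.05. The response to 24 h of hypoxia differed between the lines for 512 genes, 2.59% of the genes tested. Of these, 278 (1.41%) had a higher and 234 (1.19%) a lower line difference. By adjusted p alone, 6364 genes (32.2%) differed, so most differences between the lines were smaller than 2-fold. The median line difference over all tested genes was -0.01 on the log2 scale. Without APOA4-KO 24 h replicate 1, 595 genes were called, of which 416 were shared with the 512 genes. Without it, 268 genes responded in APOA4-KO alone and 74 in HepG2 alone, by the definitions given with the classes. With HepG2 0 h replicate 3 left out as well, 284 genes were higher and 303 lower. The 61 genes are those that APOA4-KO 24 h replicate 1 shares with the APOA4-KO 0 h libraries. Of them, 1 was among the 512 genes and 30 were among the 595 genes. They were chosen as lower in the other APOA4-KO 24 h libraries, so more calls without replicate 1 follow in part from that choice.

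Each line by itself gave different numbers of changed genes. In HepG2, 608 genes changed (3.08% of the genes tested), of which 407 rose (2.06%) and 201 fell (1.02%). In APOA4-KO, 1160 genes changed (5.88%), of which 728 rose (3.69%) and 432 fell (2.19%). By adjusted p alone, 29.6% of the genes tested changed in HepG2 and 44.4% in APOA4-KO. Both lines passed the limits for 238 genes, 39.1% of the HepG2 list and 20.5% of the APOA4-KO list, and the sign was the same for 233 of them. A gene past the limits in a single line was not always a gene whose response differed. Of the 922 genes past the limits in APOA4-KO alone, the line difference itself passed the limits for 245, and of the 370 genes past them in HepG2 alone it did so for 96. Among the 238 genes past the limits in both lines, 24 had a called line difference. Over 10355 genes whose highest group averaged 500 counts or more, Pearson's r between the HepG2 and APOA4-KO responses was 0.52 and Spearman's rho was 0.53. These are correlations across genes, which are not independent replicates.

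The 512 genes fell into classes by what each line did. In 187 genes the change passed both limits in APOA4-KO while the adjusted p in HepG2 was 0.05 or more, and in 80 genes the roles were reversed. In 74 genes both lines changed in the same direction to different extents, and in 63 genes they changed in opposite directions, each at an adjusted p under 0.05. The remaining 108 genes met none of these definitions. For genes that responded in APOA4-KO alone, 113 rose and 74 fell, and for those in HepG2 alone, 48 rose and 32 fell. A missed threshold does not show that a line did not respond. The 95% interval of the other line lay within 0.58 of 0 on the log2 scale for 58 of the 187 genes and for 17 of the 80 genes. Many of the called genes had few counts. The highest group averaged 500 counts or more for 215 of the 512 genes, and 61 genes had at most 3 counts in every library of at least 1 group. When each of the 12 libraries was left out in turn, 260 of the 512 genes were called with the same sign every time.

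**Figure D1:**
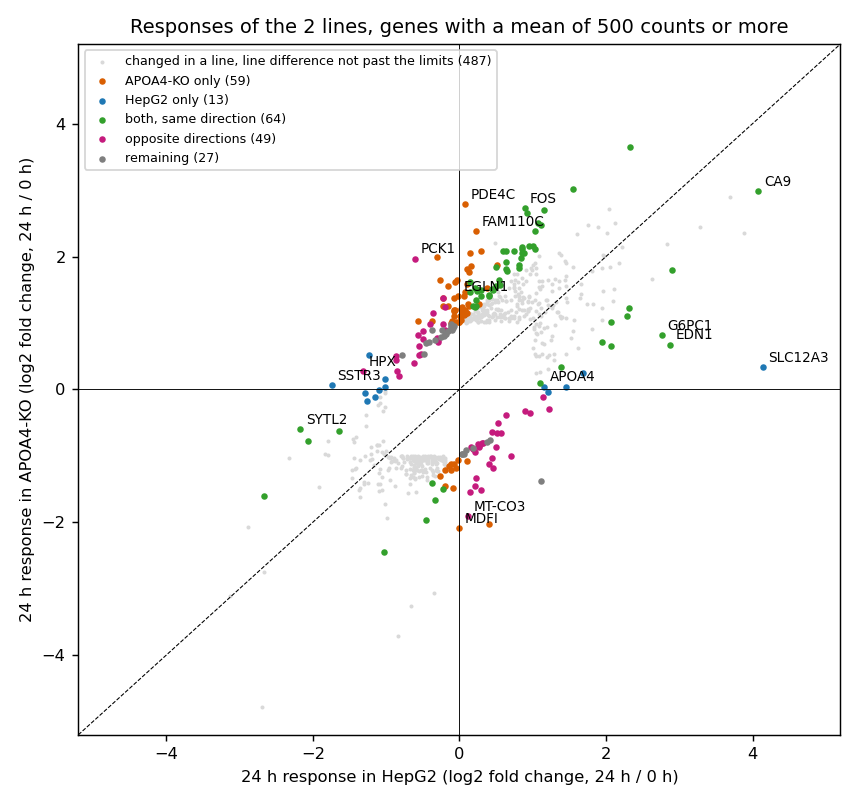
The log2 fold change from 0 h to 24 h in HepG2 (horizontal axis) and in APOA4-KO (vertical axis) is plotted for 699 genes that passed the limits in a line or in the line difference and averaged 500 counts or more in the highest group. The dashed line marks equal responses, 4 such genes lie beyond the axes, and genes in opposite directions fill the upper left and lower right quadrants.

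In APOA4-KO alone, the genes that rose most by the naming rule include those for a phosphodiesterase, a receptor, a growth factor and a glucuronosyltransferase. PDE4C (ENSG00000105650, chr19:18208652-18248200), which degrades cyclic AMP, was at 14.9, 17.1 and 15.2 CPM in the APOA4-KO 24 h libraries. It was at 2.79, 3.38 and 0.656 CPM in APOA4-KO at 0 h, and between 2.67 and 5.71 CPM in the 6 HepG2 libraries. The 24 h libraries of APOA4-KO thus lay above all others, while the HepG2 libraries of both times overlapped. Its log2 fold change was 2.79 in APOA4-KO and 0.08 in HepG2, a line difference of 2.70 (standard error 0.56, adjusted p = 8.3e-04). Overlapping genes share 70.8% of the exon bases of PDE4C and 50.3% of those of GPR146, so their counts are uncertain. GPR146, a G protein-coupled receptor, was at 11.6, 11 and 11.6 CPM in APOA4-KO at 24 h and between 0.557 and 3.23 CPM in the other 9 libraries, and its line difference was 2.30 (adjusted p = 6.7e-04).

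FAM110C (chr2:38814-46870) rose from 2.69, 2.58 and 2.36 CPM to 13.9, 11.9 and 13.9 CPM in APOA4-KO. In HepG2 it was at 4.55, 4.88 and 3.52 CPM at 0 h and at 4.84, 5.25 and 5.08 CPM at 24 h. It was therefore lower in APOA4-KO before hypoxia and higher after it, with a line difference of 2.15 (standard error 0.16, adjusted p = 5.6e-09). AREG, the EGF receptor ligand amphiregulin, was at 7.56, 5.21 and 6.35 CPM in APOA4-KO at 24 h and at 1.25 to 2.21 CPM in the other 9 libraries. UGT2B4, which conjugates bile acids and drugs with glucuronic acid, rose from 2.75, 3.35 and 2.60 CPM to 8.33, 10 and 8.88 CPM in APOA4-KO and was at 0.900 to 1.79 CPM in HepG2. The line difference was 1.91 for AREG (adjusted p = 9.7e-05) and 1.90 for UGT2B4 (adjusted p = 8.3e-05). UGT2B4 has close relatives in its gene family, among which reads can be divided. FHIP1A rose from 5.01, 5.78 and 4.29 CPM to 21, 23.8 and 19.4 CPM, with a line difference of 1.78 (adjusted p = 5.3e-07), while its HepG2 response had a 95% interval of 0.02 to 0.59 and an adjusted p of 0.106.

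Fewer genes with many counts fell in APOA4-KO alone. Of the 74 genes of this kind, 14 averaged 500 counts or more in the highest group, compared with 47 of the 113 genes that rose. MDFI, an inhibitor of myogenic transcription factors, was at 10 to 11.9 CPM in the 6 HepG2 libraries. In APOA4-KO it was already lower, at 1.39, 2.37 and 2.16 CPM, and it fell to 0.439, 0.398 and 0.555 CPM at 24 h. The line difference of -2.09 (standard error 0.22, adjusted p = 7.1e-07) thus widened a gap that was present at 0 h. ATOH8, a bHLH transcription factor, showed the same order, with 29.1 to 32.3 CPM in HepG2, 10.2 to 11.2 CPM in APOA4-KO at 0 h and 4.63 to 5.71 CPM at 24 h. Its line difference was -1.19 (adjusted p = 1.9e-08). PYCR3, a proline synthesis enzyme, fell from 11, 9.59 and 8.67 CPM to 3.92, 2.74 and 4.05 CPM in APOA4-KO and was between 10.1 and 12.6 CPM in HepG2. The line difference of PYCR3 was -1.25 (adjusted p = 2.4e-05), and -0.92 after correction for GC content and length. CARD9, an adaptor of innate immune receptors, fell from 5.05, 4.66 and 5.79 CPM to 1.27, 1.59 and 2.66 CPM, with a line difference of -1.40 (adjusted p = 0.0051).

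In HepG2 alone, the largest rise by the rule was in SLC12A3, the thiazide-sensitive sodium-chloride cotransporter (chr16:56865207-56915850). It was at 0.771, 0.423 and 0.169 CPM in HepG2 at 0 h and at 8.90, 7.43 and 7.78 CPM at 24 h. In APOA4-KO it was at 2.73, 2.01 and 2.36 CPM at 0 h and at 3.26, 2.61 and 3.03 CPM at 24 h. APOA4-KO was thus higher at 0 h and lower at 24 h, and its own libraries of the 2 times overlapped. On the log2 scale the line difference was -3.81 (standard error 0.43, adjusted p = 1.2e-06). FXYD1, a regulator of the sodium pump, rose from 9.45, 9.39 and 8.75 CPM to 30.6, 31.2 and 26.8 CPM in HepG2 and was between 8.61 and 12.6 CPM in APOA4-KO. MYCN, a transcription factor of the MYC family, rose from 4.08, 4.07 and 3.17 CPM to 7.96, 9.50 and 8.77 CPM in HepG2 and was between 3.09 and 4.74 CPM in APOA4-KO. At 0 h the libraries of the lines overlapped for MYCN, and the adjusted p for a difference was 0.880 for FXYD1 and 0.805 for MYCN. Both genes were lower in APOA4-KO at 24 h. Their line differences were -1.44 (adjusted p = 1.5e-06) and -1.25 (adjusted p = 3.4e-04). Overlapping genes share 46.6% of the exon bases of FXYD1.

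The falls in HepG2 alone included a hormone receptor, an enzyme, a homeobox gene and a transporter. SSTR3, a somatostatin receptor, fell from 8.59, 7.71 and 7.87 CPM to 2.40, 2.51 and 2.30 CPM in HepG2. In APOA4-KO it was at 3.56, 3.41 and 3.37 CPM at 0 h and at 3.26, 3.84 and 3.65 CPM at 24 h, so the HepG2 level passed below that of APOA4-KO. Its line difference was 1.80 (standard error 0.17, adjusted p = 1.3e-07). MIXL1, a homeobox gene of mesendoderm, fell from 11.2, 10.8 and 10.9 CPM to 4.52, 4.76 and 4.19 CPM in HepG2, while the 6 APOA4-KO libraries were at 18.1 to 20.5 CPM. SLC51B, a subunit of the bile acid exporter of the basolateral membrane, fell from 6.0, 6.18 and 8.22 CPM to 3.34, 3.49 and 3.29 CPM in HepG2 and was at 4.10 to 6.18 CPM in APOA4-KO. The line difference was 1.24 for MIXL1 (adjusted p = 5.5e-07) and 1.17 for SLC51B (adjusted p = 4.4e-04). ALDH3A1, an aldehyde dehydrogenase, fell from 8.08, 6.98 and 8.28 CPM to 3.87, 4.24 and 1.78 CPM in HepG2 and was at 1.15 to 2.99 CPM in APOA4-KO, with a line difference of 1.76 (adjusted p = 0.0082).

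Among the 74 genes that changed in both lines in the same direction, the response was mostly larger in APOA4-KO. A rise was larger in APOA4-KO for 49 genes and in HepG2 for 14 genes, and a fall was larger in APOA4-KO for 6 genes and in HepG2 for 5 genes. FOS, a subunit of the AP-1 transcription factor, was at 0.783 to 1.06 CPM in HepG2 at 0 h and at 1.49, 1.19 and 2.37 CPM at 24 h. In APOA4-KO it rose from 1.03, 1.43 and 1.17 CPM to 8.03, 8.48 and 7.66 CPM. The log2 fold change was 0.89 in HepG2 and 2.73 in APOA4-KO, a line difference of 1.84 (standard error 0.37, adjusted p = 5.8e-04). FAM13A rose from 1.96, 3.76 and 3.16 CPM to 5.82, 5.74 and 5.22 CPM in HepG2 and from 3.63, 4.48 and 4.21 CPM to 25.4, 27.7 and 25.0 CPM in APOA4-KO. SLC6A14, an amino acid transporter, rose from 1.32, 1.48 and 1.77 CPM to 2.99, 3.31 and 3.93 CPM in HepG2 and from 7.66, 7.96 and 9.58 CPM to 55.3, 56.0 and 52.2 CPM in APOA4-KO. These genes were higher in every APOA4-KO 24 h library than in any other library, with line differences of 1.74 for FAM13A (adjusted p = 2.2e-06) and 1.53 for SLC6A14 (adjusted p = 1.9e-06). SYTL2, a Rab27 effector, fell in both lines. It fell from 6.78, 7.09 and 7.89 CPM to 1.66, 1.64 and 1.54 CPM in HepG2, but from 1.29, 1.39 and 1.57 CPM to 0.877, 0.938 and 0.987 CPM in APOA4-KO, where it was low from the start. Its line difference was 1.57 (adjusted p = 2.5e-05).

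Rises with a larger fold change in HepG2 included genes that APOA4-KO already expressed more strongly at 0 h. G6PC1, the catalytic subunit of glucose-6-phosphatase that releases glucose from the liver (chr17:42900797-42913369), was at 10.1, 11.2 and 12.6 CPM in HepG2 at 0 h and at 78.1, 74.9 and 75.9 CPM at 24 h. In APOA4-KO it was at 84.7, 91.8 and 87.9 CPM at 0 h and at 157, 157 and 155 CPM at 24 h. Thus APOA4-KO before hypoxia stood above HepG2 after it, and a log2 fold change of 2.76 in HepG2 stood against 0.82 in APOA4-KO. The line difference was -1.93 (standard error 0.083, adjusted p = 6.3e-12). In CPM, the rise of G6PC1 was not smaller in APOA4-KO than in HepG2. TNNI2, a troponin subunit of fast muscle, rose from 4.94, 4.05 and 5.59 CPM to 20.3, 21.2 and 20.0 CPM in HepG2 and from 15.5, 15.4 and 15.7 CPM to 23.3, 24.8 and 24.5 CPM in APOA4-KO, with a line difference of -1.43 (adjusted p = 8.6e-07). EDN1, the vasoconstrictor endothelin-1 (chr6:12290363-12297194), behaved otherwise. It rose from 1.76, 2.36 and 1.72 CPM to 14.5, 15.9 and 12.6 CPM in HepG2 and from 2.81, 2.28 and 3.15 CPM to 5.23, 4.46 and 3.43 CPM in APOA4-KO. The lines overlapped for EDN1 at 0 h and were apart at 24 h, and the line difference was -2.21 (standard error 0.22, adjusted p = 3.5e-07). The mitochondrial transfer RNA gene MT-TV also met the rule, with a fall that was larger in APOA4-KO (line difference -1.5, adjusted p = 3.2e-09) and that was -0.55 after correction for GC content and length.

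In opposite directions, 26 genes rose in APOA4-KO and fell in HepG2, and 37 genes fell in APOA4-KO and rose in HepG2. All 63 genes also had opposite signs with DESeq2 size factors and with library size alone, but after correction for GC content and length 54 had opposite signs, and 25 were still called in opposite directions. PCK1, the cytosolic phosphoenolpyruvate carboxykinase that commits carbon to gluconeogenesis (chr20:57561080-57568112), was at 2.44, 2.96 and 2.34 CPM in HepG2 at 0 h and at 1.78, 1.80 and 1.51 CPM at 24 h. In APOA4-KO it rose from 15.9, 19.9 and 16.3 CPM to 66.0, 67.6 and 70.4 CPM. The 4 groups did not overlap, and the line difference was 2.57 (standard error 0.20, adjusted p = 1.8e-08). RAB20, a small GTPase, was at 17 to 19.1 CPM in HepG2 at 0 h and at 13.7 to 16.2 CPM at 24 h, and it rose from 15.8, 14.9 and 16.9 CPM to 38.7, 42.6 and 41.6 CPM in APOA4-KO. HPX, the plasma heme-binding protein hemopexin, fell from 44.5, 43.6 and 44.1 CPM to 18.2, 17.2 and 17.9 CPM in HepG2. It moved from 24.6, 27.1 and 21.6 CPM to 30.9, 29.1 and 28.4 CPM in APOA4-KO, so the order of the lines was inverted by 24 h. On the log2 scale the line difference was 1.60 for RAB20 (adjusted p = 7.6e-10) and 1.58 for HPX (adjusted p = 1.0e-09). COL2A1, a collagen of cartilage, fell from 13, 13.2 and 11.7 CPM to 10.9, 8.63 and 10 CPM in HepG2 and rose from 21.8, 22 and 21.4 CPM to 50.3, 44.9 and 49.5 CPM in APOA4-KO, with a line difference of 1.51 (adjusted p = 6.4e-09). APOM, an apolipoprotein of high-density lipoprotein, went the other way, with a log2 fold change of 0.90 in HepG2 and -0.33 in APOA4-KO and a line difference of -1.22 (adjusted p = 6.6e-08).

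**Figure D2:**
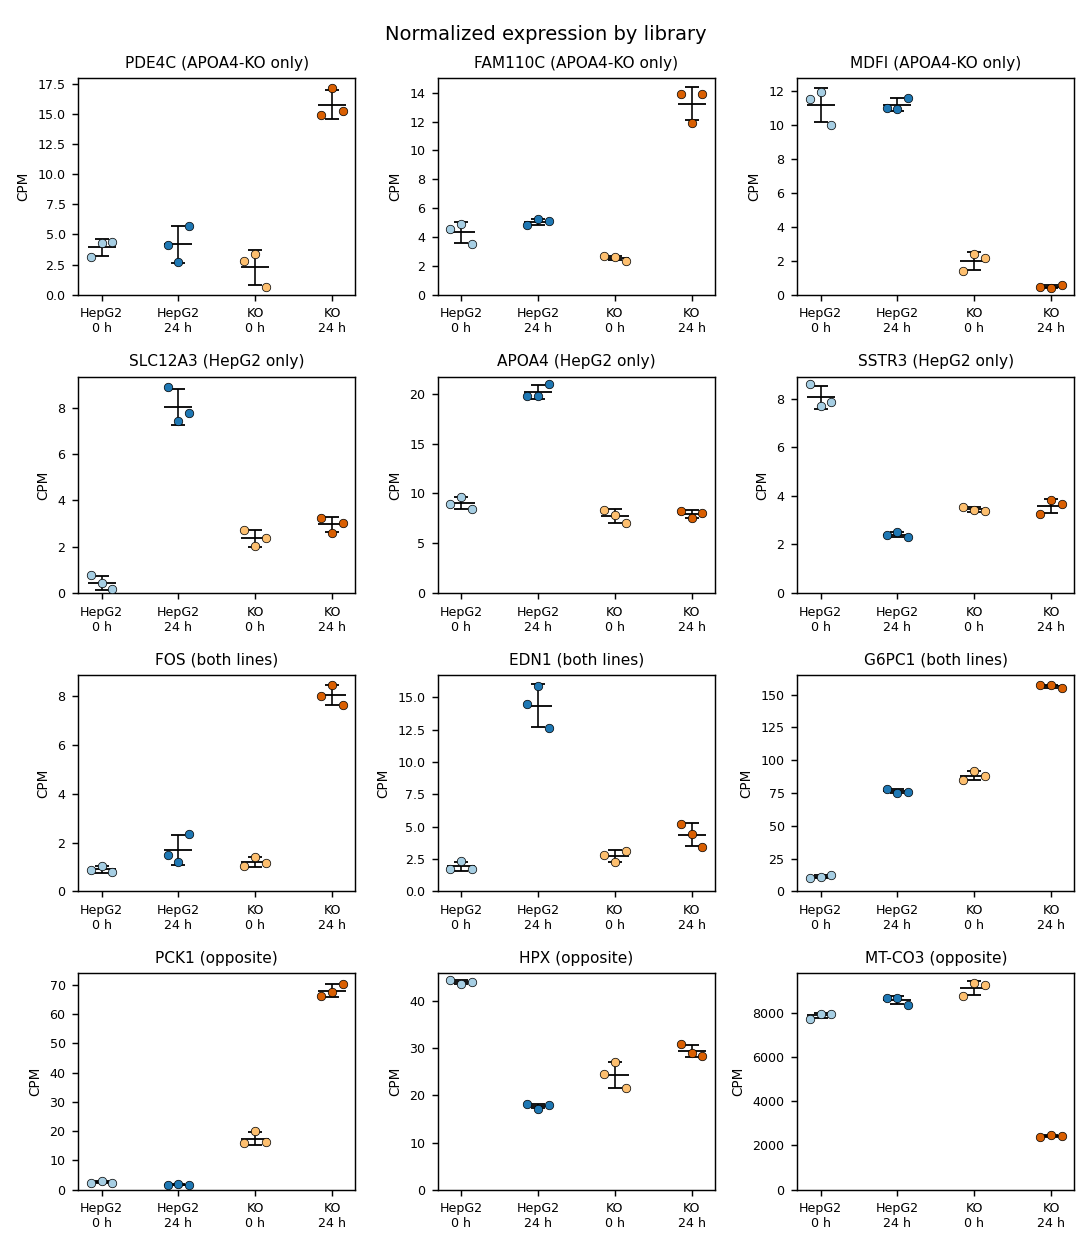
Points are the CPM of each library for 12 genes, 3 from each class, on axes that start at 0. The horizontal marks and bars give the mean and the SD of the 3 libraries of a group (KO, APOA4-KO), and for G6PC1 the APOA4-KO libraries at 0 h lie above the HepG2 libraries at 24 h.

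The transcripts of the mitochondrial genome, which encode subunits of the respiratory chain and of ATP synthase, shifted together. All 13 mitochondrial mRNAs had a lower line difference at an adjusted p under 0.05, and 6 of them passed both limits, against 1.19% of all genes called lower. Their median log2 fold change was 0.32 in HepG2 and -1.12 in APOA4-KO. MT-CO3, a subunit of cytochrome c oxidase, was at 7737, 7951 and 7940 CPM in HepG2 at 0 h and at 8670, 8658 and 8349 CPM at 24 h. In APOA4-KO it fell from 8743, 9332 and 9238 CPM to 2386, 2477 and 2415 CPM. The APOA4-KO 24 h libraries were thus far below the other 9, and the line difference was -2.03 (standard error 0.045, adjusted p = 5.4e-16). MT-CYB, a subunit of complex III, moved from 2780, 2833 and 2805 CPM to 3064, 3101 and 3134 CPM in HepG2, and from 3360, 3390 and 3414 CPM to 1179, 1125 and 1174 CPM in APOA4-KO. The line difference was -1.69 for MT-CYB (adjusted p = 7.9e-19), -1.79 for MT-ATP8 (adjusted p = 7.9e-19), -1.64 for MT-ND1, -1.57 for MT-ATP6 and -1.54 for MT-ND2. The fall was uneven along the genome, since MT-ND6, MT-ND5, MT-ND4 and MT-CO1 fell by 0.12, 0.19, 0.28 and 0.29 in APOA4-KO on the log2 scale. MTATP6P1, a nuclear pseudogene of this stretch, had a line difference of -1.67, and its reads cannot be told apart with certainty from those of the mitochondrial copy. Mitochondrial genes took 8.22 to 8.48% of the counts in HepG2 at 0 h, 8.84 to 8.96% at 24 h, 9.01 to 9.31% in APOA4-KO at 0 h and 5.34 to 5.42% at 24 h. Its part in the other results was not tested. With DESeq2 size factors, library size alone or the correction for GC content and length, all 13 mRNAs kept a lower line difference at an adjusted p under 0.05, with a median of -1.02, -0.94 and -0.78.

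**Figure D3:**
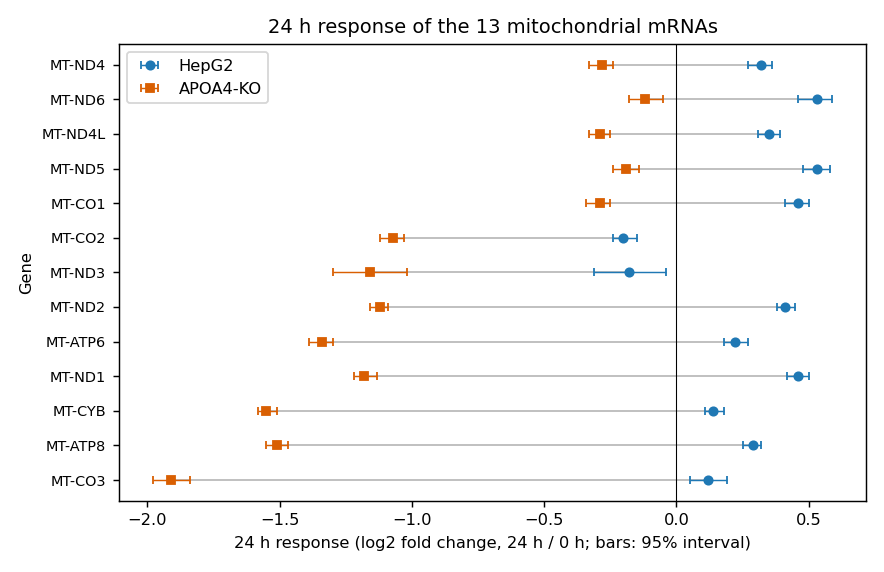
The log2 fold change from 0 h to 24 h in HepG2 (circles) and APOA4-KO (squares) is shown for the 13 mitochondrial mRNAs with 95% intervals. The squares lie left of the circles for all 13 genes.

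Among 28 HIF targets outside glycolysis, the response of APOA4-KO was the larger for nearly all. At an adjusted p under 0.05, 25 genes had a higher line difference, against 16.8% of all genes, and 1 had a lower one. The median log2 fold change was 0.77 in HepG2 and 1.54 in APOA4-KO, and the median line difference was 0.78, against -0.01 over all genes. In HepG2, 8 of the 28 genes rose past both limits, against 2.06% of all genes. In APOA4-KO, 24 did, against 3.69% of all genes. ADM, the vasodilator peptide adrenomedullin, rose from 7.47, 6.94 and 7.96 CPM to 17.3, 14.5 and 15.1 CPM in HepG2 and from 9.12, 9.18 and 7.88 CPM to 47.3, 51.2 and 50.7 CPM in APOA4-KO. EGLN1, the prolyl hydroxylase that marks HIF for degradation, was at 37.7 to 41.6 CPM in the 6 HepG2 libraries and rose from 37.3, 42.6 and 41.7 CPM to 103, 112 and 106 CPM in APOA4-KO. DDIT4, an inhibitor of mTORC1, was at 63.4 to 68.4 CPM in HepG2 and rose from 62.4, 56.1 and 58.8 CPM to 130, 143 and 145 CPM. EGLN1 and DDIT4 thus rose in APOA4-KO alone. At 0 h the libraries of the lines overlapped for EGLN1, whereas those of DDIT4 were slightly lower in APOA4-KO (log2 difference -0.15, adjusted p = 0.014). Overlapping genes share 41.2% of the exon bases of DDIT4. The 24 h line difference was 1.44 for ADM (adjusted p = 2.9e-09), 1.42 for EGLN1 (adjusted p = 5.3e-11) and 1.19 for DDIT4 (adjusted p = 6.7e-11). It was also past both limits for the nuclear receptor RORA at 1.47, for the growth-linked gene NDRG1 at 1.14 and for the MYC antagonist MXI1 at 1.13.

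CA9, the membrane carbonic anhydrase that exports acid, was the gene of this list with a lower line difference. It rose from 13.2, 10.4 and 12.7 CPM to 203, 200 and 209 CPM in HepG2 and from 38.0, 37.9 and 39.2 CPM to 306, 299 and 306 CPM in APOA4-KO. Its level was higher in APOA4-KO at both times, and the smaller fold change there started from a higher level. In CPM, the rise of CA9 was larger in APOA4-KO. On the log2 scale the line difference was -1.09 (standard error 0.078, adjusted p = 5.0e-09). It was -0.97 without HepG2 0 h replicate 2, and it was -0.76 after correction for GC content and length. LOX, which cross-links collagen, had nearly equal responses of 1.97 and 2.01, and P4HA1, a collagen prolyl hydroxylase, had responses of 1.02 and 0.94. Their line differences of 0.04 and -0.09 had adjusted p values of 0.586 and 0.095. EPO, the hormone erythropoietin, had a log2 fold change of 0.14 in HepG2 (adjusted p = 0.330) and of 0.75 in APOA4-KO (adjusted p = 2.2e-06), with a line difference of 0.61 (adjusted p = 0.0018). Without APOA4-KO 24 h replicate 1, 25 of the 28 genes again had a higher and 1 a lower line difference. After correction for GC content and length, 23 had a higher and 3 a lower one, with a median of 0.57. The shares over all genes in these refits are not given here, for this list or for the others.

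The DNA before the start of 4 of the 7 HIF list genes past both limits is shown because these genes share a regulator but responded to different extents. The 4 are the gene with a lower line difference and 3 with a higher one, and the 250 bases before the first start listed by RefSeq (GRCh38.p14) are printed in gene orientation, with the HIF core motif ACGTG, or its reverse complement CACGT, in capitals. CA9 (chr9:35673678-35673927, plus strand), EGLN1 (chr1:231422288-231422537, minus strand) and DDIT4 (chr10:72273674-72273923, plus strand) held 1 match each, and ADM (chr11:10304823-10305072, plus strand) held none. MXI1 and RORA, not printed, held no match either, and NDRG1 is named only, so 3 of the 6 windows held a match.

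CA9: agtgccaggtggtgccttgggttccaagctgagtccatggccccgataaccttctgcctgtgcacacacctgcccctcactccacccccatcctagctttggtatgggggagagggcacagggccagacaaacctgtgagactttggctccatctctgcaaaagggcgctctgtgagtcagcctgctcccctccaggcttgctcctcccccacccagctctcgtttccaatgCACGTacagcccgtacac

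EGLN1: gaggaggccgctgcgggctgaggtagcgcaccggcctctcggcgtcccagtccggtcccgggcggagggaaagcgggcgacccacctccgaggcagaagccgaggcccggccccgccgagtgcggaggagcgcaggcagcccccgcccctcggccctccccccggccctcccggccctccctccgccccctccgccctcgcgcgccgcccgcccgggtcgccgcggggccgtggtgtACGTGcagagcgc

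DDIT4: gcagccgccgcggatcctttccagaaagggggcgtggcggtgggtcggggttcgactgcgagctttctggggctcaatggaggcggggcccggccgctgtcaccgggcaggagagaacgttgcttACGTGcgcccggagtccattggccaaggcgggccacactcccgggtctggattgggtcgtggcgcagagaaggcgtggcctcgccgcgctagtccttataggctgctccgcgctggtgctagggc

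ADM: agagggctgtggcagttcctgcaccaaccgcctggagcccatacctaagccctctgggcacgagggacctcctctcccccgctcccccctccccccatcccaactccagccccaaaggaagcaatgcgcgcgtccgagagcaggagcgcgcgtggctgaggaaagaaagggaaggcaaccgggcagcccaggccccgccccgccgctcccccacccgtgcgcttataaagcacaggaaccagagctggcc

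On either strand, ACGTG was found in 14 of the 23 HIF list windows given (60.9%) and in 5101 of 27305 windows of that length (18.7%). The variant GCGTG was found in 8 of the 23 windows (34.8%) and in 31.9% of all windows, and among the 6 windows those of ADM and DDIT4 held it, with 1 and 2 matches. A match is a string of letters in this window and not a measured binding site.

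Most glycolysis genes rose in both lines, but their line differences were mixed. At an adjusted p under 0.05, 18 of the 22 rose in HepG2 and none fell, against 11.4% and 18.3% of all genes. In APOA4-KO, 20 rose and 1 fell, against 21.5% and 22.8% of all genes. The median log2 fold change was 0.66 in HepG2 and 0.90 in APOA4-KO. Of 22 genes, 11 had a higher and 7 a lower line difference at an adjusted p under 0.05, against 16.8% and 15.4% of all genes. The median line difference of the list was 0.08. The higher ones included regulators and isoenzymes. PFKFB3, which makes an activator of phosphofructokinase, rose from 19.9, 18.2 and 18.1 CPM to 38.2, 39.3 and 37.2 CPM in HepG2 and from 25.8, 22.9 and 24.0 CPM to 125, 124 and 129 CPM in APOA4-KO. HK1, the hexokinase of most tissues, was at 2.31 to 3.04 CPM in HepG2 and rose from 6.44, 6.65 and 5.46 CPM to 21.6, 18 and 16.9 CPM in APOA4-KO. PDK3, which inhibits pyruvate dehydrogenase, was at 12 to 13.5 CPM in HepG2 and rose from 13.3, 13.6 and 12 CPM to 27.6, 31.0 and 30.9 CPM. These 3 genes passed both limits, with line differences of 1.35, 1.67 and 1.14. Enzymes of the pathway and a glucose carrier were also among the higher ones, with 0.92 for HK2, 0.39 for PGK1, 0.10 for GPI and 0.50 for SLC2A3. The lower ones were other enzymes of the pathway, pyruvate kinase included, and the glucose carrier SLC2A1. Their line differences were small. TPI1 had -0.38, ALDOA -0.29, PFKL and ENO1 both -0.21, PKM -0.19, GAPDH -0.13 and SLC2A1 -0.11. After correction for GC content and length, GAPDH was at 0.15 and SLC2A1 at 0.00, and 13 of the 22 genes were higher and 4 lower. LDHA, which makes lactate, had log2 fold changes of 0.98 and 0.97.

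Of 13 tested genes of gluconeogenesis and fasting, 4 were higher and 4 lower, against 16.8% and 15.4% of all genes, with a median of -0.09. After correction for GC content and length, 6 were higher and 4 lower and the median was 0.14. Besides PCK1 and G6PC1, IGFBP1, a secreted binding protein of insulin-like growth factors, passed the limits. It rose from 289, 296 and 305 CPM to 2199, 2230 and 2204 CPM in HepG2 and from 1001, 1136 and 1163 CPM to 3808, 3745 and 3845 CPM in APOA4-KO, with a line difference of -1.11 (adjusted p = 4.2e-08). As for G6PC1 and CA9, the level was higher in APOA4-KO at both times, and the rise in CPM was not smaller there.

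The study names 18 genes for this experiment, most of them of PPAR signaling, the pathway in which fatty acid sensing nuclear receptors control lipid use. The list was picked with these samples at hand and is not independent evidence of a direction. At an adjusted p under 0.05, 11 of the 18 had a higher and 4 a lower line difference, against 16.8% and 15.4% of all genes. The counts were 11 and 2 after correction for GC content and length. PCK1, PLIN2 and APOA4 passed both limits. PLIN2, which coats lipid droplets, rose from 183, 178 and 191 CPM to 377, 372 and 378 CPM in HepG2 and from 256, 245 and 251 CPM to 1075, 1073 and 1100 CPM in APOA4-KO. Its line difference was 1.08 (standard error 0.031, adjusted p = 2.0e-14). CPT1A, which admits fatty acids to mitochondria, was at 176 to 178 CPM in HepG2 at 0 h and at 161 to 169 CPM at 24 h, and it rose from 110, 110 and 114 CPM to 196, 202 and 208 CPM in APOA4-KO. Its line difference was 0.96 (adjusted p = 1.3e-11), just under the limit. The receptor gene PPARA had log2 fold changes of -0.05 and 0.76, and the lipase inhibitor ANGPTL4 had 1.00 and 1.87. The fatty acid transporter gene SLC27A4 moved the other way, with 0.01 and -0.82 and a line difference of -0.83 (adjusted p = 5.2e-08).

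Other lists showed smaller shifts. Their counts before correction are to be read against the 16.8% of all genes that were higher and the 15.4% that were lower. Of 17 histone demethylases, oxygen-dependent enzymes that remove methyl groups from histones, 14 had a higher and none a lower line difference at an adjusted p under 0.05, with a median of 0.48, and KDM7A passed both limits. KDM7A rose from 10.7, 11.7 and 10.7 CPM to 17.9, 17.1 and 16.7 CPM in HepG2 and from 13.5, 16.3 and 13.7 CPM to 49.8, 50.8 and 52.0 CPM in APOA4-KO, with a line difference of 1.17 (adjusted p = 5.3e-09) that was 0.80 after correction for GC content and length. Of 43 ribosomal protein and elongation factor genes, 37 had a lower and none a higher line difference, against 15.4% of all genes lower, with a median of -0.34, and none passed both limits. Of 27 DNA replication genes, 14 had a lower and none a higher line difference, with a median of -0.26. Of 23 genes of cholesterol synthesis and uptake, 14 had a lower and 3 a higher line difference, with a median of -0.28. The medians were 0.33 for the demethylases, -0.24 for the ribosomal genes, -0.28 for DNA replication and -0.23 for cholesterol after correction for GC content and length. Cholesterol then had 16 genes lower and none higher. Among 41 nuclear genes of the respiratory chain, 17 were lower and 3 higher, with a median of -0.14. The median was -0.07 after that correction, with 15 lower and 5 higher, and -0.06 without APOA4-KO 24 h replicate 1, with 13 lower and 5 higher.

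Liver secretory and stress genes gave mixed counts, to be read against the 16.8% of all genes that were higher and the 15.4% that were lower. Of 17 tested genes of the STAT3 pathway and the acute phase, the response of hepatocytes to inflammation, 11 had a higher and 1 a lower line difference. FGB, the fibrinogen beta chain, rose from 101, 101 and 100 CPM to 118, 126 and 129 CPM in HepG2 and from 297, 295 and 290 CPM to 828, 852 and 823 CPM in APOA4-KO, a line difference of 1.2 (adjusted p = 1.2e-13). HAMP, the iron hormone hepcidin, fell from 8.56, 7.34 and 6.21 CPM to 5.84, 5.43 and 4.51 CPM in HepG2 and rose from 2.17, 2.80 and 2.93 CPM to 3.49, 4.87 and 5.08 CPM in APOA4-KO, with a line difference of 1.25 (adjusted p = 2.0e-04). Of 21 AP-1 and immediate early genes, 9 were higher and 6 lower, and FOS, FOSB and EGR2 passed both limits. FOSB was at 0.619 to 1.98 CPM in the 12 libraries, with a line difference of 1.12 that was 0.86 without HepG2 24 h replicate 2. EGR2 had no count in the APOA4-KO 0 h libraries and at most 0.411 CPM in any other, so no fold change is given. Of 24 tested hepatocyte products, 9 were higher and 11 lower, and ALB, the main plasma protein, had log2 fold changes of 0.14 and -0.02. The ER chaperone list had 4 genes higher and 7 lower of 17, or 4 and 10 with DESeq2 size factors. The ATF4 list had 1 higher and 9 lower of 19, and the p53 list 6 higher and 5 lower of 16. Of 36 PPAR targets, 14 were higher and 8 lower, of 22 lipid synthesis and lipoprotein genes 8 and 9, of 23 drug metabolism genes 6 and 1, and of 20 NRF2 targets 9 and 6. The mitosis list had 11 higher and 6 lower of 24, or 8 and 8 with DESeq2 size factors. The hepatocyte transcription factors had 7 and 3 of 17, the IGF axis 6 and 1 of 13, the apoptosis list 5 and 5 of 21 and the NF-kB list 2 and 5 of 18. No replication-dependent histone of 12 passed the threshold. Several of these shares lie near or below those of all genes, such as 5 and 5 of 21 for apoptosis. After correction for GC content and length, the counts of higher and lower genes were 12 and 3 for AP-1, 14 and 4 for PPAR, 5 and 5 for lipid synthesis, 7 and 2 for drug metabolism, 8 and 3 for NRF2, 7 and 4 for mitosis, 4 and 2 for apoptosis and 3 and 3 for NF-kB. They were 12 and 0 for the acute phase, 10 and 7 for hepatocyte products, 2 and 9 for ATF4 and 3 and 0 for the histones. The ER chaperones had 3 and 10, p53 6 and 5, the hepatocyte transcription factors 8 and 2 and the IGF axis 6 and 1. The 16.8% and 15.4% belong to the fit without this correction. The shares over all genes in the corrected fit are not given here.

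Counts of several lists moved without APOA4-KO 24 h replicate 1, most of all those of interferon and matrix genes. Of 18 tested interferon response genes, 1 had a lower and none a higher line difference, and without that library 11 had a lower one and the median moved from -0.49 to -1.04. After correction for GC content and length, with that library kept, none had a lower and 2 a higher one, while the median was -0.46. Summed over the list, this library was at 386 CPM, near the 383 to 403 CPM of the APOA4-KO 0 h libraries, and the other APOA4-KO 24 h libraries were at 253 and 263 CPM. Of 29 tested matrix and mesenchymal genes, 6 were lower and 7 higher, near the 15.4% lower and 16.8% higher of all genes. Without the library 14 were lower and 7 higher, while after correction for GC content and length 3 were lower and 6 higher. The shares over all genes in these refits are not given here, for this list or the interferon list. Without the library, the p53 list had 3 genes lower in place of 5, and the mitosis list had 8 higher in place of 11. VIM, the intermediate filament vimentin, was at 28, 26.7 and 27.3 CPM in APOA4-KO at 0 h and at 26.6, 8.21 and 8.90 CPM at 24 h. LAMC3, a laminin chain that passed both limits, was at 2.22 to 2.64 CPM in APOA4-KO at 0 h and 0.889 to 1.26 CPM at 24 h, with a line difference of -1.15 (adjusted p = 6.4e-07) and of -1.02 without replicate 1.

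Markers of other cell types were low in part. Of 10 endothelial markers, 5 or 6 averaged under 1 CPM in each group, and the summed level was 15.1 to 15.9 CPM in HepG2 at 0 h, 21.3 to 24.5 CPM at 24 h, 23.8 to 26.3 CPM in APOA4-KO at 0 h and 19.2 to 23.7 CPM at 24 h. EGFL7 and ROBO4 of that list passed both limits, with line differences of -1.70 (adjusted p = 9.2e-04) and -1.46 (adjusted p = 6.7e-04), at 4.89 CPM or less for EGFL7 and 6.87 CPM or less for ROBO4. Of 10 fibroblast and stellate cell markers, 6 or 7 averaged under 1 CPM, and the sum was 161 to 163 CPM in HepG2 at 0 h, 143 to 152 CPM at 24 h, 128 to 130 CPM in APOA4-KO at 0 h and 104 to 113 CPM at 24 h, most of it ACTA2 and PDGFRB. Without APOA4-KO 24 h replicate 1, the median line difference went from 0.22 to -0.45 over 8 tested fibroblast markers and from -0.80 to -1.41 over 9 tested endothelial markers, with 2 fibroblast markers lower in place of 1 and 3 endothelial markers lower both times. Of 10 macrophage and monocyte markers, 5 or 6 averaged under 1 CPM, and the sum rose in both lines, from 1081 to 1094 CPM to 2062 to 2121 CPM in HepG2 and from 1578 to 1619 CPM to 2304 to 2495 CPM in APOA4-KO. Nearly all of it was lysozyme, LYZ, with group means of 1039, 2026, 1562 and 2354 CPM, while CSF1R, SPI1 and CD163 were under 1 CPM in every group. Of 10 cholangiocyte markers, 4 averaged under 1 CPM, and the sum was 1687 to 1772 CPM in HepG2, 1021 to 1034 CPM in APOA4-KO at 0 h and 1292 to 1305 CPM at 24 h. Of 8 tested, 4 had a higher and none a lower line difference at an adjusted p under 0.05. Without APOA4-KO 24 h replicate 1, 4 were higher and 1 lower. The marker counts with all libraries are to be read against the 16.8% of all genes that were higher and the 15.4% that were lower. The shares over all genes without that replicate are not given here. The part of these sums in the line difference was not tested.

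The contrast can also be read as a change in the difference between the lines. At 0 h, 851 genes were called between the lines (4.31%), of which 2.65% of the genes tested were higher and 1.66% lower in APOA4-KO. At 24 h there were 1535 (7.77%), with 4.50% higher and 3.28% lower. By adjusted p alone, 30.5% of the genes tested differed at 0 h and 48.1% at 24 h. Of the 512 genes, 231 passed that threshold at 24 h alone, 157 at both times, 84 at 0 h alone and 40 at neither. The difference was larger in size at 24 h for 360 of the 512 genes. Among genes that rose in HepG2 alone, 24 of 48 differed at 0 h alone and 12 had the larger difference at 24 h. Among genes that rose in APOA4-KO alone, 57 of 113 differed at 24 h alone and 81 had the larger difference at 24 h. For rises in both lines that were larger in HepG2, 10 of the 14 genes differed at both times and 5 had the larger difference at 24 h.

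The same difference at 48 h shares the 0 h libraries, so its values are given beside those at 24 h only for named genes. For PCK1 the line difference was 2.57 at 24 h and 4.53 at 48 h, for FOS 1.84 and 3.35, and for MT-CO3 -2.03 and -1.55. For EDN1 it was -2.21 at 24 h and 2.14 at 48 h, and for G6PC1 -1.93 and 2.19, each past both limits with opposite signs. SSTR3 likewise had 1.80 and -1.79. For SLC12A3 it was -3.81 and -0.14, for MDFI -2.09 and 0.30, and for COL2A1 1.51 and 0.01, with adjusted p values at 48 h of 0.845, 0.306 and 0.960. APOA4 had -1.12 and -1.07.

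The line difference moved with the base composition and the length of genes. In 10 bins of genes ordered by exon GC content, its median fell from 0.28 in the lowest bin (median GC 37.2%) to -0.28 in the highest (64.2%). The median response in APOA4-KO fell from 0.26 to -0.40 over these bins, and in HepG2 from -0.01 to -0.12. In 10 bins by exon length, the median line difference rose from -0.12 in the shortest to 0.25 in the longest. Genes called higher had a median GC content of 46.8% and genes called lower 55.3%, against 49.2% for all tested genes. Across 10549 genes with a mean log2 CPM above 2, Spearman's rho between GC content and a library's deviation from the mean of the 12 libraries was -0.59 to -0.52 in the APOA4-KO 24 h libraries, 0.33 to 0.48 in HepG2 and 0.04 to 0.20 in APOA4-KO at 0 h. A fit with library offsets from splines of GC content and length was made. That fit, chosen after the gradient had been seen, called 399 genes, 248 higher and 151 lower, of which 292 were shared with the 512 genes. It left a median of 0.22 in the shortest bin.

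**Figure D4:**
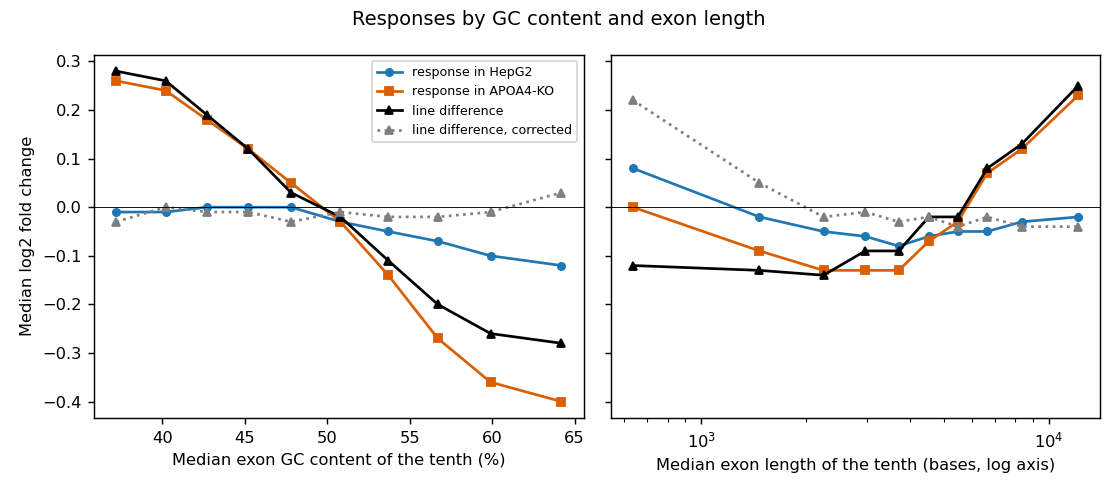
Median log2 fold changes are shown for 10 bins of the tested genes by exon GC content (left) and exon length (right, log axis). The APOA4-KO response and the line difference run from above 0 at low GC content to below 0 at high GC content, and the corrected line difference stays between -0.03 and 0.03 over the GC bins.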

How the data were processed

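Poly(A) RNA of HepG2 and APOA4-KO cells was sequenced in 18 libraries. According to the methods and the submitters' notes, the authors used fastp for trimming and HISAT2 for alignment to GRCh38.p13. The methods name featureCounts for counting, whereas the notes name StringTie. The deposited count table holds whole-number counts for 61806 genes. The authors also deposited FPKM values, which were used in an alternative. Per the labels, the second strand was made with dUTP and treated with UDG, which marks the strand, whereas the methods name a kit and do not mention strand. The strand setting of the counting is not given in the sources used here. A count of 4 was 2.66 to 3.07 times as frequent as the mean of counts of 3 and 5, so a small count need not be a single read pair, and errors come from the replicates.

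Genes passing filterByExpr (19743) were fitted with edgeR 4.0.16 in R 4.3.3 (TMM, quasi-likelihood, 1 coefficient for each of 6 groups, all 18 libraries). No 2 libraries held identical values. Alternatives were DESeq2 1.42.0, limma 3.58.1 on log2(FPKM + 1) with a mean FPKM of at least 0.1, other scalings and filters, and leaving out libraries. The test was tried on simulated counts, with changes added to some genes in APOA4-KO 24 h and no other difference between groups. The simulation held no gradient with GC content or length and no library that stood apart. It therefore cannot show how the test behaves with these features, and its result is not given here. Gene symbols and coordinates came from GENCODE for GRCh38, which covered 97.2% of the genes tested.

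Named genes had a called line difference, a symbol, at least 10 counts in each of the 12 libraries, 500 counts or more on average in the highest group and no overlap of libraries in the comparison that set their class, and stayed called with any 1 library left out. The largest were taken, 6 for rises in APOA4-KO alone and 4 for each other kind. APOA4, genes the study names and members of 33 gene lists were added. Members and lists were chosen with earlier results of these data known.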

Additional observations from a re-analysis of the deposited data

Results flagged for a closer look

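The difference between the lines was tested itself for each result below. The count of 512 genes with a called line difference and the 63 genes that changed in opposite directions stand out because the 24 h response differed between HepG2 and APOA4-KO. Every group had 3 libraries, so single libraries were not tested for standing apart by a fixed criterion.

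Among the named genes, the log2 line difference was 2.70 for PDE4C, 2.30 for GPR146, 2.15 for FAM110C, 1.91 for AREG, 1.90 for UGT2B4 and 1.78 for FHIP1A, which rose in APOA4-KO alone. It was -2.09 for MDFI, -1.40 for CARD9, -1.25 for PYCR3 and -1.19 for ATOH8, which fell in APOA4-KO alone. It was -3.81 for SLC12A3, -1.44 for FXYD1, -1.25 for MYCN and -1.12 for APOA4, which rose in HepG2 alone, and 1.80 for SSTR3, 1.76 for ALDH3A1, 1.24 for MIXL1 and 1.17 for SLC51B, which fell in HepG2 alone.

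For genes that changed in both lines in the same direction it was 1.84 for FOS, 1.74 for FAM13A, 1.57 for SYTL2 and 1.53 for SLC6A14, and -2.21 for EDN1, -1.93 for G6PC1, -1.5 for MT-TV and -1.43 for TNNI2. For genes that changed in opposite directions it was 2.57 for PCK1, 1.60 for RAB20, 1.58 for HPX and 1.51 for COL2A1, and -2.03 for MT-CO3, -1.79 for MT-ATP8, -1.69 for MT-CYB and -1.67 for MTATP6P1.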

How the results depend on the processing

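Of 232 recomputed counts, 210 stayed within 1.5 times the reported one. With limma on log2(FPKM + 1), where low genes have smaller fold changes by construction, 62 genes were higher and 40 lower, 35 responded in a single line, 26 in both lines, 32 in opposite directions and 9 remained, and 101 genes changed in HepG2, 282 in APOA4-KO, 143 between the lines at 0 h and 327 at 24 h. With no limit on the fold change, 3322 genes were higher and 3042 lower, 3446 responded in a single line, 1961 in both and 803 in opposite directions. With a log2 limit of 2, 64 were higher and 68 lower, with 87, 5, 9 and 31 genes in the 4 classes. The correction for GC content and length gave 151 lower genes. The higher share of the calls was 54.3%, 47.3% with DESeq2 size factors (235 higher, 262 lower) and 61.4% with library size alone (325 and 204).

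Leaving out each of the 12 libraries gave 240 to 300 higher and 193 to 307 lower genes, 238 to 342 in a single line, 63 to 78 in both, 54 to 71 in opposite directions and 90 to 119 remaining. It gave 529 to 601 genes for HepG2, 1053 to 1321 for APOA4-KO, 733 to 869 at 0 h and 1439 to 1583 at 24 h. Of 748 recomputed line differences of 34 named genes, 731 stayed on the same side of the limits and none changed sign. Part of the 748 values came from the refits without each of the 12 libraries. Staying called in those refits was a condition for naming a gene, so that part could not have come out otherwise. Only the values from the other settings test how stable these genes are. Among the study's genes, APOA1 had -0.17, and 0.21 after the correction for GC content and length, which was chosen after seeing the data; the cause was not tested.

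Same-numbered libraries did not deviate together, with correlations of -0.14 to 0.03 over 18 pairs. This cannot show whether they were handled together, which the labels do not say. With the replicate number as a block, 263 genes were higher and 220 lower, and no call count moved by over 1.5 times.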
